A study of Gorilla gorilla gorilla with 13 samples.

Results

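The genes described here are 54 genes of DNA replication, all of them among the 18137 genes counted on the human genome build hg38. They were taken by name from what each protein does: origin licensing, the MCM helicase and its activation, the replicative polymerases, the clamp and lagging-strand enzymes, the single-strand binding protein RPA, nucleotide supply, fork protection with chromatin assembly, and the activators E2F1 and E2F2. No measured value was a criterion of that choice, but it was made with earlier results of these data known. All 54 passed the filter on low counts and were among the 16804 genes tested.

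The values come from bulk RNA-seq of cerebral organoids, 3-dimensional brain-tissue cultures grown from pluripotent stem cells of 1 gorilla line. The organoids were at week 8 of culture, give or take 3 days. Flow cytometry separated 4 populations: apical radial glia (aRG, 4 libraries), basal radial glia (bRG, 4), basal intermediate progenitors (bIP, 3) and neurons positive for BCL11B (N, 2). The cells carry no transgene or drug treatment that the labels name, and which antigens besides BCL11B guided the sort is not given in the sources used here. Each library was made from the RNA of 10000 cells by Smart-seq2, a full-length method without molecular identifiers. Amplification took 12 to 17 PCR cycles, and the number for each library is not given. Whether libraries with the same label came from different cultures is not stated, so the p-values below speak only of the spread among these libraries, part or all of which may be technical.

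Before S phase, the origin recognition complex, CDC6 and CDT1 load the ring-shaped MCM2-7 helicase onto DNA, which licenses an origin. Kinases, CDC45 and the GINS complex then switch the helicase on, primase and the polymerases copy the strands, and the clamp PCNA, its loader RFC and the flap nuclease FEN1 serve the lagging strand. Most of these genes are transcribed under E2F control in cycling cells. In developing cortex the radial glia are the dividing stem cells, intermediate progenitors divide a limited number of times, and neurons do not divide.

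Total counts per library lay between 5464721 and 12524938. Radial glia markers summed to 1930 to 3610 CPM (a gene's reads relative to all counted reads of its library, after scaling) in the aRG and bRG libraries, against 96.3 to 138 in the other 5. Neuron markers ran from 559 to 907 CPM in radial glia and from 4180 to 6710 elsewhere. They include BCL11B, for which N was sorted, so their sum is not an independent check of N. None of 6 basal radial glia markers was called between bRG and aRG. Of these, 5 had a negative log2 fold change in bRG, with a median of -0.48, so they do not set bRG apart. The libraries labelled bIP departed from their label. EOMES, which marks intermediate progenitors, stood at 98.2, 127 and 31 CPM there and at 260 to 460 in bRG, and all 7 Cajal-Retzius neuron markers were higher in bIP than in bRG, summing to 1390 to 3710 CPM against 52.2 to 146. Throughout, bIP stands for the libraries with that label. In bRG library 3 several members lay far from the other 3 bRG libraries, among them ORC1 (2.12 CPM against 26.4 to 28.8) and ORC4 (840 against 122 to 374), so counts are also given without it.

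The replication genes as a group stepped down from aRG to bRG and again from bRG to bIP. Between bIP and N no single member was called in the main test. Their share of all counts was 0.478% to 0.641% in the 4 aRG libraries, 0.328% to 0.387% in bRG, 0.169% to 0.2% in the bIP libraries, and 0.144% to 0.177% in neurons. In this share the ranges of aRG, bRG and bIP did not overlap, while those of bIP and N did. The mean log2 CPM of the members was 6.06 to 6.62 in aRG, 5.30 to 5.52 in bRG, 4.11 to 4.16 for bIP, and 3.91 to 3.94 in neurons. On this second measure all populations had separate ranges, with N slightly below bIP. In sorted bulk samples, fewer cells in S phase and less RNA per cell cannot be told apart. The 4 populations differed for 43 of the 54 members by edgeR's quasi-likelihood test, against 22.5% of all tested genes.

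**Figure D1:**
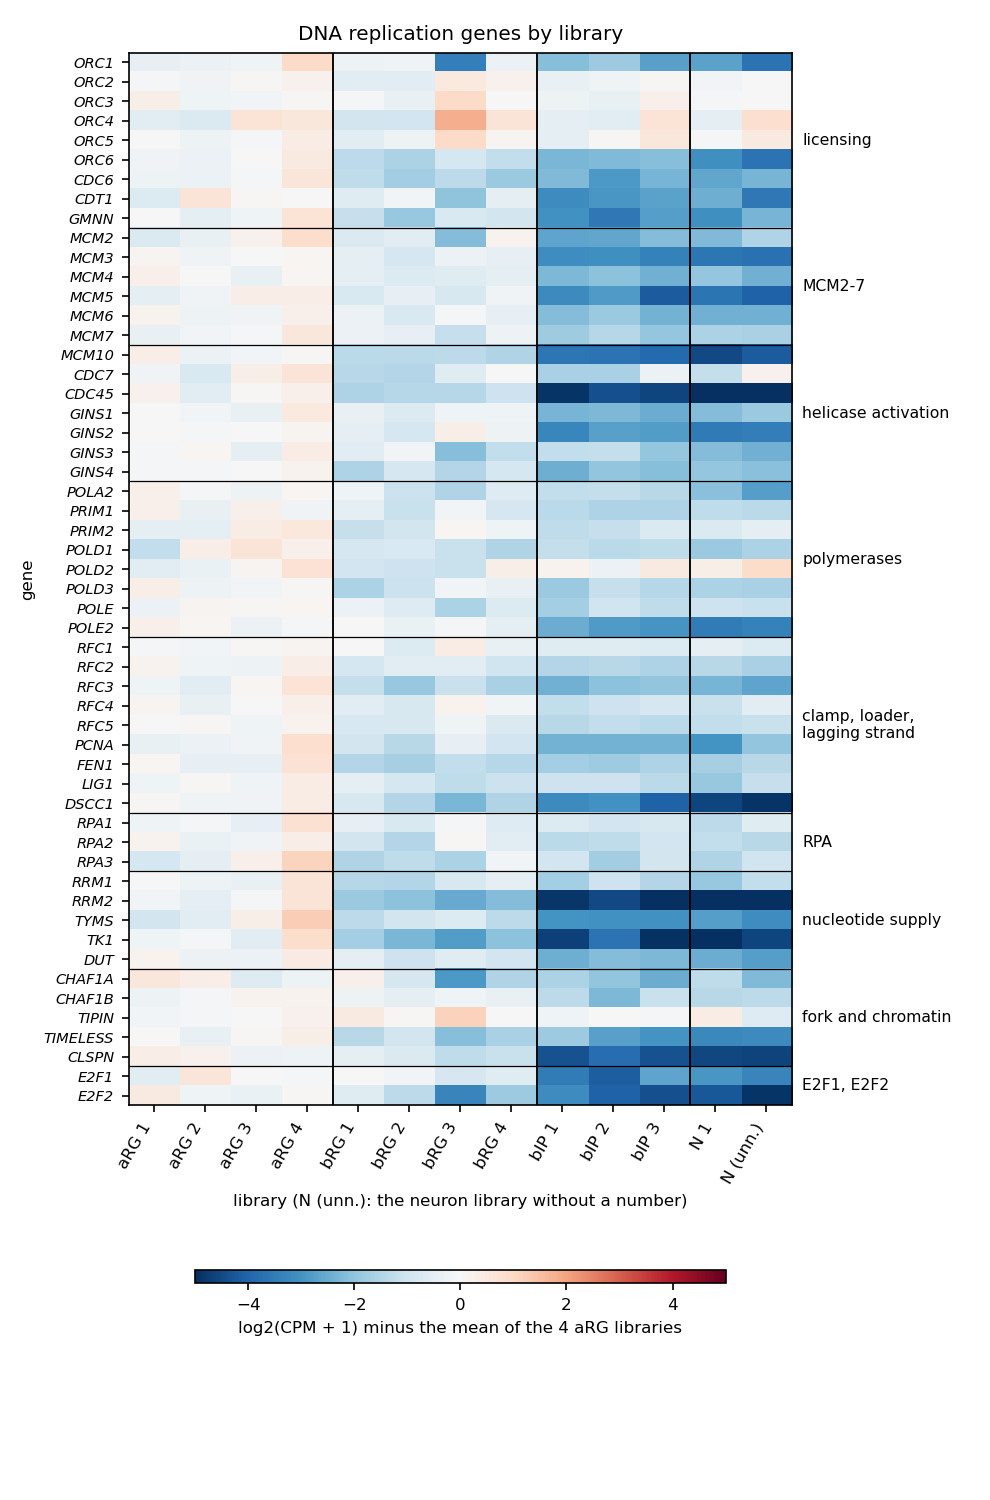
Each row is 1 of the 54 genes, grouped by role at the right, and each column 1 of the 13 libraries; color gives log2(CPM + 1) minus the mean of the 4 aRG libraries, blue for lower and red for higher, saturated beyond 5 in size. CDC45, RRM2, TK1 and CLSPN are dark blue in all bIP and N libraries, while ORC2 to ORC5, POLD2 and TIPIN stay near white or turn red, and bRG library 3 holds single dark or red cells that the other bRG libraries lack.

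In bRG against aRG, 10 members fell and none rose at an adjusted p under 0.05, where 1.23% of all tested genes fell. The 10 were RRM2, MCM10, CDC45, FEN1, CDC6, ORC6, TK1, TIMELESS, GINS4 and RFC3. The median log2 fold change of the 54 was -0.75, against 0.038 over all tested genes, and 50 of 54 were negative. Without bRG library 3 the count was 11. Without aRG library 4, which had the highest aRG value in 37 of the 54 members, it was 5. In 23 members every bRG library lay below every aRG library, as 4.00% of all tested genes did. Genes of mitosis fell in the same comparison: 29 of 30 reference genes of G2 and M phase fell, with a median of -2.50. Their summed level was 6120 to 11900 CPM in aRG and 1570 to 2450 in bRG. Choroid plexus markers, chiefly TTR, also summed higher in aRG (1620 to 7820 CPM against 233 to 1270), with 1 of 7 called, as did those of mesenchyme (160 to 385 against 110 to 145), with 1 of 7 called. Their part in the result was not tested.

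In bIP against bRG, 28 members fell and none rose, where 8.44% of tested genes fell and 8.25% rose. The median was -1.01 (all genes -0.091), and 53 of 54 were negative. The count that fell was 29 without bRG library 3 and 22 to 29 as each library was left out, and without bRG library 4 POLD2 was called higher. Leaving out bRG library 3 added ORC1, POLE, CHAF1A and TIMELESS, while RFC2, RFC5 and PRIM1 were lost. Both comparisons use the same 4 bRG libraries, so their fold changes are not independent. ORC6, MCM10, CDC45, GINS4, RRM2 and TK1 were called lower in each. In bIP against aRG, 44 members fell and none rose (9.98% of tested genes fell and 8.47% rose), with a median of -2.14. As each library was left out 38 to 47 fell, the 47 without bRG library 3. Cajal-Retzius and neuron markers rose with the fall in bIP, as given above, and the G2/M genes fell, 24 of 30 with a median of -2.40. Their part in the fall was not tested.

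**Figure D2:**
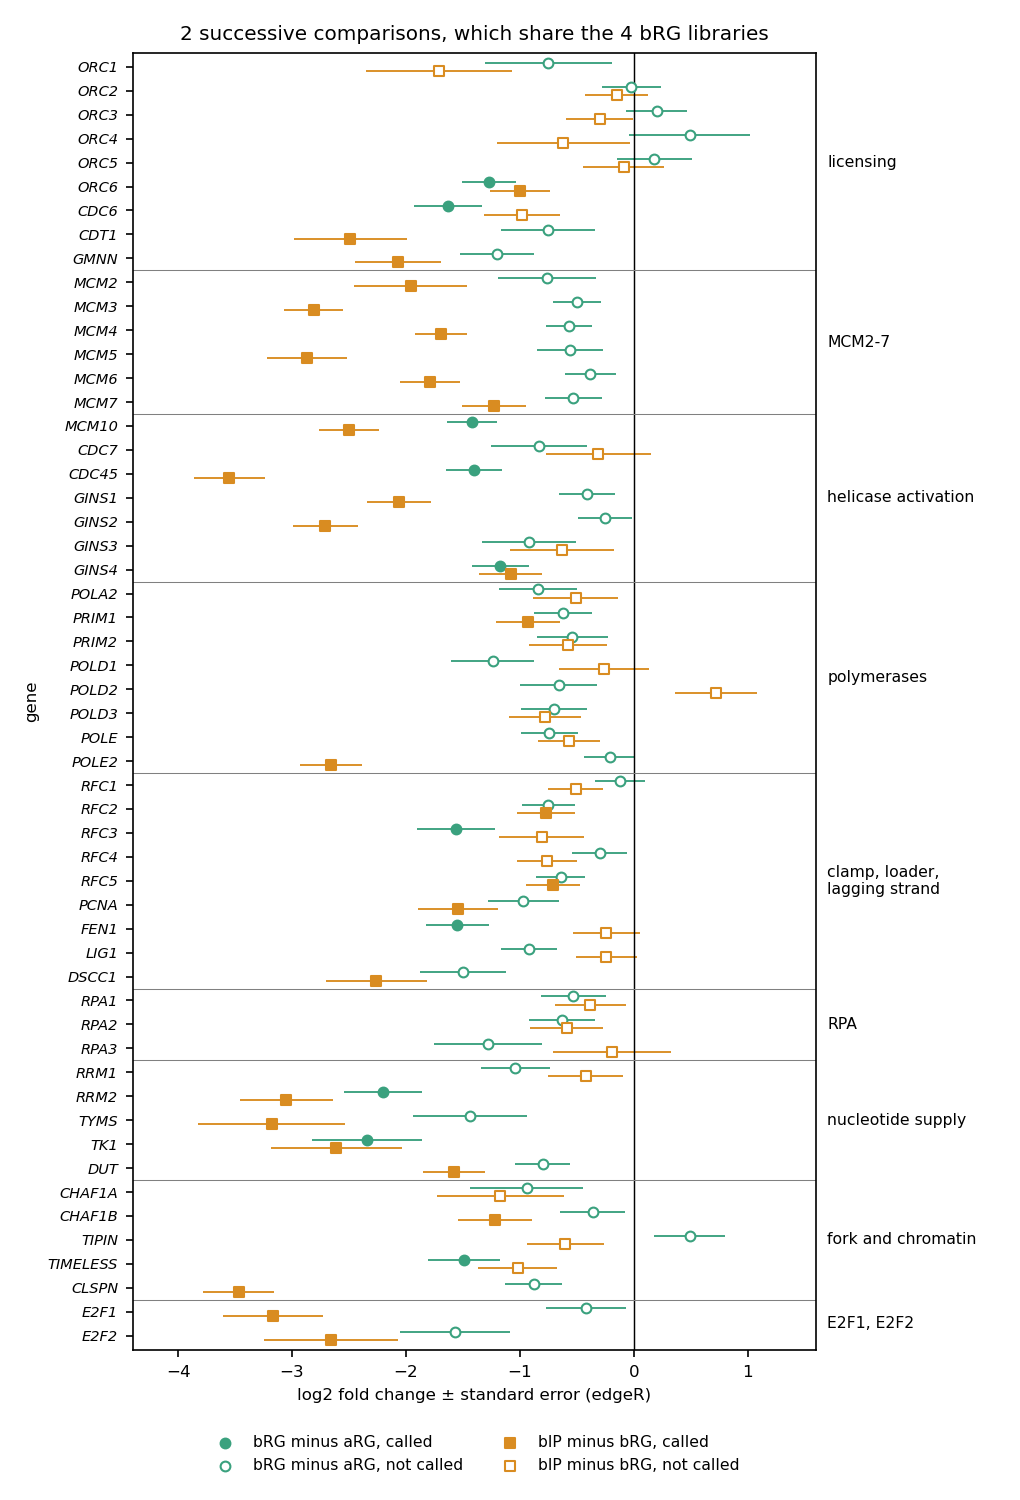
The horizontal axis is edgeR's log2 fold change, for bRG minus aRG (circles) and bIP minus bRG (squares), 1 row per gene by role. Bars are standard errors computed from the fold change and the F statistic of its test. Filled symbols passed an adjusted p of 0.05. The 6 MCM2-7 genes have open circles between -0.76 and -0.38 and filled squares between -2.87 and -1.23, whereas FEN1 has a filled circle at -1.55 and an open square at -0.24.

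Among the 9 licensing genes, ORC6 and CDC6 fell from aRG to bRG, while ORC2, ORC3, ORC4 and ORC5 were called in no comparison. ORC6, the smallest and least tightly held subunit of the origin recognition complex, measured 127, 118, 144 and 193 CPM in aRG libraries 1 to 4, 56.9, 47.1, 76.9 and 60.4 in bRG 1 to 4, 28.2, 29.9 and 32.3 in bIP 1 to 3, and 16.3 and 10.2 in N (library 1, then the unnumbered one, an order kept below). The 4 populations formed 4 separate ranges. ORC6 fell by 1.27 on the log2 scale in bRG (SE 0.24, edgeR adjusted p = 0.00758) and by a further 1.00 in bIP (SE 0.264, adjusted p = 0.0129). The second call was lost without bIP library 1 or 2, and on the gorilla build gorGor6 (-0.94, adjusted p = 0.0636). ORC6 overlaps VPS35 in the RefSeq gorilla annotation, and the use of strand in counting is not given, so its counts are uncertain.

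CDC6, the ATPase that joins the origin complex to load MCM2-7, measured 43.4, 42.2, 48.1 and 79.2 CPM in aRG, 20.5, 14.9, 20.2 and 13.3 in bRG, 10.5, 6.26 and 9.44 in bIP, and 7.6 and 9.33 in N. The aRG libraries all lay above the rest, and bIP and N shared 1 range. In bRG its log2 change was -1.63 (SE 0.301, adjusted p = 0.00646). Without aRG library 4 its adjusted p was 0.0523. CDT1, the second loading factor, fell by 2.49 on the log2 scale in bIP against bRG and its inhibitor GMNN by 2.07, with adjusted p of 0.00168 and 8.38e-04 by edgeR. With all libraries ORC1, the ATPase subunit, was called lower in bIP only against aRG, at -2.46 (adjusted p = 0.013), a call lost without aRG library 4 or bIP library 1 or 3. Without bRG library 3, its lowest in bRG, ORC1 was also called against bRG, as it was by DESeq2 with all libraries.

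The core subunit ORC5 shows the other behaviour. It measured 36.1, 30.3, 33.9 and 47.4 CPM in aRG, 25, 30.8, 71.8 and 40.3 in bRG, 25.7, 37.7 and 54.5 in bIP, and 35.4 and 49.7 in N. The 4 ranges overlapped, and no pairwise log2 fold change of ORC5 exceeded 0.21 in size (standard errors of 0.328 to 0.421). For ORC2 the bIP against aRG change was -0.17, with an SE of 0.278.

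All 6 MCM2-7 genes, the ring helicase itself, fell from bRG to bIP, by a median of 1.88 on the log2 scale; none was called in bRG against aRG, where the median was -0.54. MCM3 measured 106, 85.6, 96 and 104 CPM in aRG, 69.7, 53.6, 79.5 and 74 in bRG, 10.3, 10.9 and 8.45 in bIP, and 7.11 and 6.34 in N. Its bRG libraries were all below its aRG libraries, yet the larger gap lay between bRG and bIP. MCM3 had a log2 change of -0.50 in the first comparison (SE 0.213, edgeR adjusted p = 0.453) and fell by 2.81 in the second (SE 0.259, adjusted p = 1.19e-06).

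MCM5 measured 93.9, 116, 162 and 162 CPM in aRG, 75.9, 98.1, 74.9 and 114 in bRG, 13.6, 17.5 and 6.29 in bIP, and 9.31 and 7 in N. The aRG and bRG ranges overlapped, and bIP and N lay far below both. In bIP against bRG it had a log2 change of -2.87 (SE 0.351, adjusted p = 1.79e-05). MCM2 was more scattered: 29.3, 37.1, 57.3 and 91.3 CPM in aRG, 28.9, 33, 10.1 and 54.8 in bRG, 7.02, 7.21 and 10.2 in bIP, and 9.68 and 16.8 in N. In bRG library 3 MCM2 was as low as in bIP. Its call in bIP against bRG (-1.96, SE 0.498, adjusted p = 0.0102) was lost without bIP library 1 or 2. MCM4, MCM6 and MCM7 fell by 1.69, 1.79 and 1.23 in that comparison.

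Of the 7 genes that switch the loaded helicase on, MCM10, CDC45 and GINS4 fell in bRG, and these with GINS1 and GINS2 fell in bIP against bRG. CDC45, a subunit of the running helicase, measured 140, 83.2, 127 and 146 CPM in aRG, 40.8, 44.4, 44.6 and 58.7 in bRG, 3.14, 4.77 and 4.04 in bIP, and 2.45 and 1.77 in N. No 2 populations overlapped. Its log2 changes were -1.40 in bRG against aRG (SE 0.246, edgeR adjusted p = 0.00403) and -3.55 in bIP against bRG (SE 0.31, adjusted p = 7.49e-07). MCM10, an initiation factor that is no part of the MCM2-7 ring, measured 141, 91.9, 102 and 116 CPM in aRG, 42.7, 43.2, 44.8 and 38.3 in bRG, 8.06, 7.74 and 6.56 in bIP, and 3.92 and 5.22 in N. It too formed 4 separate ranges, and its bRG libraries had an SD of 2.8 CPM around a mean of 42.2. The changes were -1.42 (SE 0.223, adjusted p = 0.00157) and -2.50 (SE 0.264, adjusted p = 4.22e-06).

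The 4 GINS subunits work as 1 complex. GINS2 measured 152, 144, 156 and 174 CPM in aRG, 113, 87.5, 194 and 130 in bRG, 15.5, 22.7 and 21.9 in bIP, and 12.6 and 13.3 in N. GINS1 measured 72.1, 64.7, 54.7 and 102 CPM in aRG, 54.7, 43.8, 60.9 and 61.1 in bRG, 13.4, 14.2 and 12 in bIP, and 15.2 and 18.8 in N. For both, aRG and bRG overlapped, and the fall came with bIP (-2.71 and -2.06).

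GINS4 measured 67.2, 67.9, 69.4 and 80.7 CPM in aRG, 23.6, 39.7, 25.3 and 37.7 in bRG, 12.1, 17.3 and 15.4 in bIP, and 18 and 16 in N. Its bRG libraries sat between the aRG and bIP libraries without overlap, and the steps were of like size, -1.17 (SE 0.248, adjusted p = 0.0187) and -1.08 (SE 0.275, adjusted p = 0.0104). The first call was lost without aRG library 4 (adjusted p = 0.0978) or bRG library 1 (0.0805), and the second without bIP library 1. GINS3 was called only against aRG among the comparisons of aRG, bRG and bIP, at -1.55 in bIP (adjusted p = 0.0244, lost without aRG library 4 or any 1 bIP library). CDC7, the kinase that fires origins, measured 84.9, 55.9, 118 and 152 CPM in aRG, 36.1, 34.3, 63.1 and 97.9 in bRG, 30.6, 30.4 and 78.9 in bIP, and 41.2 and 112 in N. All 4 of its ranges overlapped, and with all libraries it was called in no comparison. Without bIP library 3 it fell in bIP against aRG (-1.75, adjusted p = 0.0288).

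**Figure D3:**
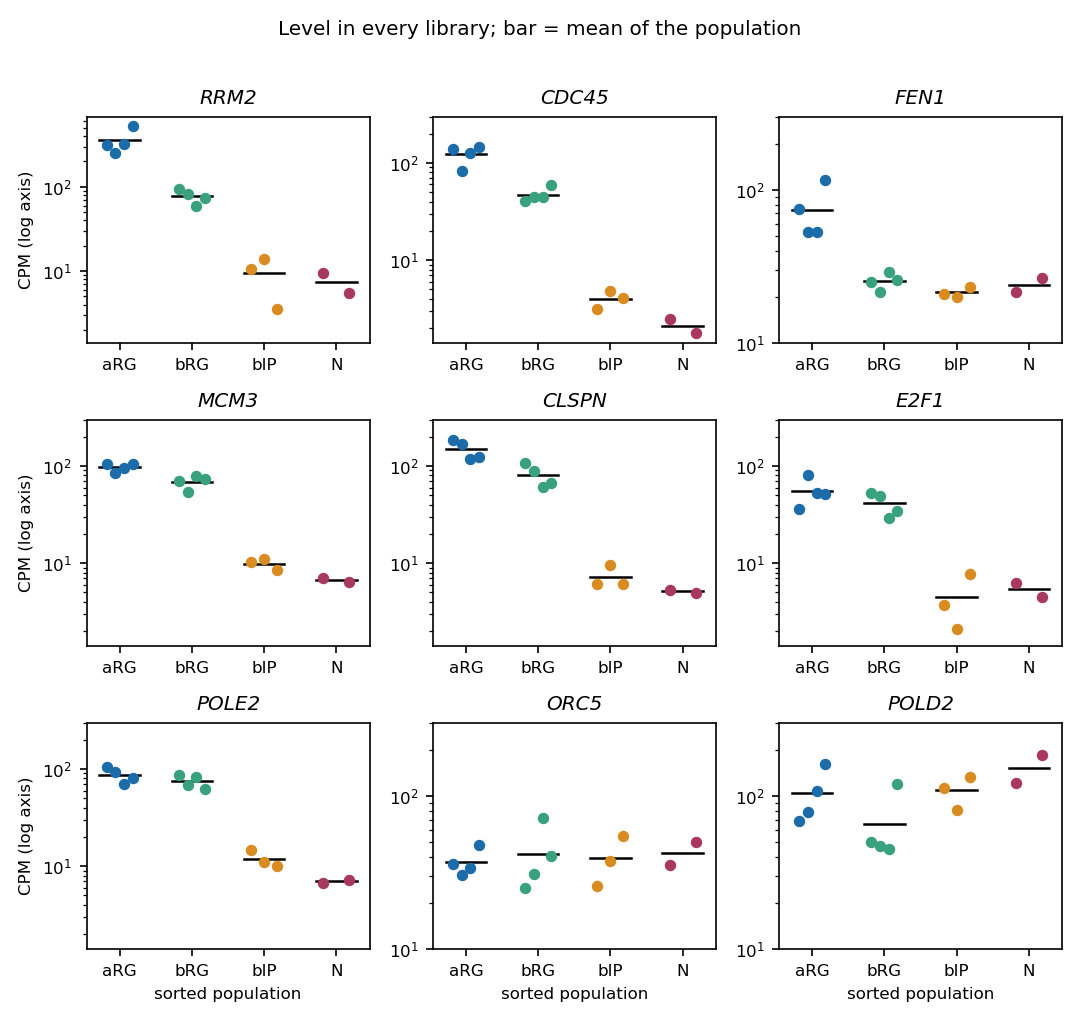
The vertical axis is CPM on a log scale whose range differs between panels, each point is 1 library and each bar the mean of its population, for 9 genes. RRM2 and CDC45 step down at bRG and at bIP, and FEN1 drops between aRG and bRG. MCM3, CLSPN, E2F1 and POLE2 drop mainly between bRG and bIP. ORC5 shows no drop. POLD2 has a lower mean in bRG (65.7 CPM) than in aRG (104), bIP (109) or N (152).

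None of the 8 polymerase and primase genes was called in bRG against aRG, and PRIM1 and POLE2 fell in bIP against bRG. POLE2, the second subunit of the leading-strand polymerase epsilon, measured 104, 92.3, 70.8 and 80 CPM in aRG, 87.7, 67.9, 82.5 and 62.8 in bRG, 14.6, 11.1 and 10.1 in bIP, and 6.74 and 7.28 in N. The aRG and bRG ranges overlapped, and bIP and N were lower in every library. POLE2 had -0.21 in bRG against aRG (SE 0.225, edgeR adjusted p = 0.838) and fell by 2.66 in bIP against bRG (SE 0.27, adjusted p = 3.13e-06). The catalytic subunit POLE had -0.57 in the second comparison (SE 0.273, adjusted p = 0.184) and a called -1.31 in bIP against aRG. Without bRG library 3 POLE was also called in the second comparison. PRIM1, the catalytic primase subunit, fell by 0.93 on the log2 scale in bIP against bRG (adjusted p = 0.0301), a call lost without bRG library 1 or 3 or any 1 bIP library. On gorGor6 PRIM1 was not called there (-0.81, adjusted p = 0.0935).

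POLD2, a small subunit of the lagging-strand polymerase delta, was the only member called higher in any comparison with all libraries. It measured 68.3, 78.2, 107 and 161 CPM in aRG, 50.2, 47.2, 45.2 and 120 in bRG, 112, 80.9 and 133 in bIP, and 121 and 184 in N. Both neuron libraries exceeded all bRG libraries, and 1 of them lay inside the aRG range. The bRG libraries 1 to 3 lay below all aRG libraries, but POLD2 was not called in bRG against aRG. In N against bRG the log2 change was 1.21 (SE 0.398, adjusted p = 0.0395). That call was lost without any 1 of aRG library 3, bRG libraries 1, 2 and 3, bIP library 1 and either neuron library, with adjusted p between 0.0519 and 0.335. In bIP against bRG POLD2 had 0.72 (SE 0.361, adjusted p = 0.2) with all libraries, and without bRG library 4, its highest in bRG, it was called at 1.19 (SE 0.321, adjusted p = 0.0185). The catalytic subunit POLD1 and the subunit POLD3 fell in bIP against aRG, by 1.50 and 1.48 on the log2 scale, the first call lost without bIP library 2. POLA2 and PRIM2, which belong to the polymerase alpha-primase complex, also fell there (-1.35 and -1.12), but neither was called on the gorilla build gorGor6. The POLA2 call was lost without any 1 bIP library, and that of PRIM2 without aRG library 3 or 4 or bIP library 1 or 2. Their counts on gorGor6 were 85.5% and 18.2% of those on hg38, where the other 52 members had 117% to 251%.

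Of the 9 clamp and lagging-strand genes, FEN1 and RFC3 fell in bRG, and RFC2, RFC5, PCNA and DSCC1 in bIP against bRG. FEN1, which trims the flaps of Okazaki fragments, measured 74.4, 52.7, 53 and 116 CPM in aRG, 25.1, 21.6, 29 and 25.6 in bRG, 20.9, 20 and 23.2 in bIP, and 21.6 and 26.4 in N. All bRG, bIP and N libraries shared 1 narrow range below aRG. FEN1 fell by 1.55 in bRG (SE 0.276, edgeR adjusted p = 0.00457), and its bIP against bRG change was -0.24 (SE 0.295, adjusted p = 0.649). FEN1 overlaps TMEM258 in the RefSeq annotation, so its counts carry the same doubt as those of ORC6. The ligase LIG1, which seals the fragments, had -0.92 and -0.24 in these comparisons and was called only in bIP and N against aRG.

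RFC3, a subunit of the clamp loader, measured 28, 21.7, 34.8 and 53 CPM in aRG, 13.8, 8.12, 14.6 and 9.99 in bRG, 5.37, 7 and 7.46 in bIP, and 5.76 and 4.38 in N. Its aRG, bRG and bIP ranges did not overlap. The bRG call (-1.56, SE 0.342, adjusted p = 0.0238) was lost without aRG library 3 or 4 or bRG library 2 or 4 (adjusted p 0.0639 to 0.174) and on gorGor6 (0.053). The large subunit RFC1 measured 134, 127, 144 and 152 CPM in aRG, 140, 86, 178 and 108 in bRG, 91.4, 90.7 and 86.8 in bIP, and 99.9 and 86.9 in N. Its bRG libraries spanned all other ranges, and RFC1 was called in no comparison with all libraries. Without bRG library 2 or 3 it fell in bIP against aRG, by 0.63 and 0.64 on the log2 scale (adjusted p of 0.0486 and 0.0235).

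The calls of RFC2 (-0.77) and RFC5 (-0.71) in bIP against bRG were at adjusted p of 0.0481 and 0.0464, and that of RFC2 was lost when any library except bRG library 4 was left out, that of RFC5 when any except bRG library 2 was. PCNA, the sliding clamp, fell by 1.54 there (SE 0.351, adjusted p = 0.00487). DSCC1, part of an alternative loader that acts in cohesion, measured 41.6, 34.5, 35.7 and 52 CPM in aRG, 22.9, 14.2, 7.43 and 13.5 in bRG, 3.58, 4.03 and 1.53 in bIP, and 0.735 and 0.373 in N. Its 4 ranges did not overlap. The N values rest on 6 and 4 reads. DSCC1 fell by 2.26 in bIP against bRG (SE 0.446, adjusted p = 0.00159), and its bRG against aRG change of -1.50 had an adjusted p of 0.0651.

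RPA, the trimer that coats single-stranded DNA, also serves repair. Of its 3 genes, RPA2 alone was called with all libraries, in bIP and N against aRG. RPA2 measured 89.4, 63.1, 70.4 and 102 CPM in aRG, 42, 28.4, 83.2 and 55.6 in bRG, 30.5, 32.9 and 40.5 in bIP, and 33 and 29.9 in N. RPA1 measured 51.1, 55.4, 45.1 and 102 CPM in aRG, 44.9, 35.5, 57.4 and 37.9 in bRG, 36.6, 30.3 and 34.2 in bIP, and 23.4 and 39.1 in N. Both had bRG libraries inside the aRG range. RPA2 fell by 1.23 in bIP against aRG (SE 0.325, edgeR adjusted p = 0.0115, lost without bIP library 1 or 2), and RPA1 had -0.91 (SE 0.317, adjusted p = 0.0531). RPA1 passed there without aRG library 3 or bRG library 3, and RPA3 without aRG library 1 or bRG library 3 or 4.

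The nucleotide supply genes had the lowest median of the 9 role lists in bRG against aRG, -1.44, with RRM2 and TK1 called of 5. RRM2, the S phase subunit of ribonucleotide reductase, measured 312, 253, 325 and 530 CPM in aRG, 93.1, 82.1, 59.1 and 74.4 in bRG, 10.7, 13.9 and 3.51 in bIP, and 9.44 and 5.5 in N. Its mean went from 355 ± 121 (SD, n = 4) in aRG to 77.2 ± 14.3 (n = 4) in bRG and 9.38 ± 5.33 (n = 3) in bIP, with no overlap. The log2 changes were -2.20 (SE 0.343, edgeR adjusted p = 0.00144) and -3.05 (SE 0.407, adjusted p = 4.09e-05). The large subunit RRM1, with which RRM2 forms the enzyme, measured 90, 76.8, 69.4 and 141 CPM in aRG, 33.5, 31.8, 51.4 and 66.5 in bRG, 27.5, 43.2 and 31.9 in bIP, and 23.7 and 38.2 in N. The bRG and bIP ranges of RRM1 overlapped, with a change of -0.42 (SE 0.329, adjusted p = 0.443), and it was called only in bIP and N against aRG.

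TK1, the thymidine kinase of the salvage route, measured 54.4, 58.9, 42.1 and 116 CPM in aRG, 18.6, 12.1, 8.25 and 14.6 in bRG, 1.49, 3.92 and 1.08 in bIP, and 0.123 and 1.68 in N. The value of 0.123 is 1 read. TK1 fell by 2.34 in bRG (SE 0.482, adjusted p = 0.0149) and by 2.61 in bIP against bRG (SE 0.577, adjusted p = 0.00374). The first call was lost without aRG library 4 (adjusted p = 0.126), bRG library 2 (0.0513) or bRG library 4 (0.0541). TYMS, which makes thymidylate, and DUT, which removes dUTP, fell in bIP against bRG by 3.18 and 1.58 on the log2 scale. The bIP values of TYMS rest on 4, 5 and 6 reads.

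Of the 5 fork and chromatin genes, TIMELESS fell in bRG, and CLSPN and CHAF1B in bIP against bRG. CLSPN, the fork protein that relays the checkpoint signal to CHEK1, measured 186, 168, 118 and 124 CPM in aRG, 107, 89.2, 60.7 and 66.7 in bRG, 6.12, 9.54 and 6.11 in bIP, and 5.27 and 4.94 in N. No ranges overlapped. Its change of -0.88 in bRG against aRG (SE 0.249) had an edgeR adjusted p of 0.131, and that of -3.47 in bIP against bRG (SE 0.312) one of 9.43e-07.

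TIMELESS and TIPIN encode a pair of proteins that bind each other at the fork. TIMELESS measured 91.1, 70.8, 93.8 and 113 CPM in aRG, 33.8, 48.1, 20.3 and 28.9 in bRG, 25.4, 12.9 and 10.5 in bIP, and 8.82 and 9.05 in N. TIPIN measured 21.9, 22.8, 24.9 and 28.1 CPM in aRG, 33.7, 25.7, 54.6 and 23.7 in bRG, 20.6, 24.5 and 23 in bIP, and 32.1 and 15.1 in N. The bRG libraries of TIMELESS all lay below its aRG libraries, while those of TIPIN overlapped them. TIMELESS fell by 1.49 in bRG (SE 0.313, adjusted p = 0.0175). TIPIN had 0.49 (SE 0.312, adjusted p = 0.684) and was called nowhere. The TIMELESS call was lost without aRG library 4 (0.12), bRG library 1 (0.0542) or bRG library 4 (0.0747). TIPIN overlaps MAP2K1, so its counts are uncertain. The chromatin assembly subunits CHAF1A and CHAF1B had log2 changes of -2.11 and -1.57 in bIP against aRG, both called, CHAF1A not without bIP library 2 or 3. CHAF1B fell by 1.22 on the log2 scale against bRG, a call lost without bIP library 2 and on gorGor6 (adjusted p = 0.0707).

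E2F1 and E2F2, activators of many of the genes above, were each called in bIP against bRG and not in bRG against aRG. E2F1 measured 36.1, 81.2, 53 and 50.9 CPM in aRG, 53, 48.7, 29.4 and 34.5 in bRG, 3.73, 2.12 and 7.73 in bIP, and 6.25 and 4.48 in N. E2F2 measured 70.6, 44, 40.5 and 52.7 CPM in aRG, 32.8, 19.7, 4.24 and 13.6 in bRG, 4.93, 2.12 and 1.44 in bIP, and 1.72 and 0.746 in N. For E2F1 the radial glia populations overlapped, while for E2F2 all bRG libraries lay under all aRG libraries. E2F1 had log2 changes of -0.42 (SE 0.352, edgeR adjusted p = 0.782) and -3.17 (SE 0.439, adjusted p = 5.74e-05). E2F2 had -1.57 (SE 0.486, adjusted p = 0.2) and -2.66 (SE 0.59, adjusted p = 0.00384), and in bRG library 3 it lay inside the bIP range. The difference between these 2 changes of E2F2 was -1.09 (SE 0.86, adjusted p = 0.535).

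Whether a gene's change from bRG to bIP differed from its change from aRG to bRG was tested directly, as the second log2 fold change minus the first. In 8 members the second fall was the larger at an adjusted p under 0.05, and in none the first, where 2.55% of all tested genes had a lower second change. The member median was -0.43, against -0.128 over all genes. The count was 8 without bRG library 3 and 6 to 9 as each library was left out, and without bRG library 4 POLD2 had a higher second change (2.32, SE 0.57, edgeR adjusted p = 0.0355). The 8 were POLE2 (-2.45, SE 0.395), MCM3 (-2.31, SE 0.375), CLSPN (-2.59, SE 0.437), GINS2 (-2.45, SE 0.416), CDC45 (-2.16, SE 0.433), MCM5 (-2.31, SE 0.507), E2F1 (-2.75, SE 0.623) and GINS1 (-1.65, SE 0.426). Their edgeR adjusted p ran from 0.00138 for POLE2 to 0.0315 for GINS1. GINS1 was lost without any 1 of aRG libraries 1 to 3, bRG libraries 1, 3 and 4 and the bIP libraries (0.0503 to 0.0915), MCM5 without bRG library 4 (0.0543), and E2F1 without bRG library 1 (0.0545). FEN1 had a value of the other sign, 1.30 (SE 0.493, adjusted p = 0.146), as did POLD2, 1.38 (SE 0.614, adjusted p = 0.224). For the members that fell in both steps, ORC6 (0.27, SE 0.424) and GINS4 (0.09, SE 0.442) had differences smaller than their standard errors.

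No member was called in N against bIP by edgeR's quasi-likelihood test, where 0.113% of all tested genes were called lower and none higher, and 6 members had an unadjusted p under 0.05, all lower in N, as 4.56% of all tested genes did: ORC6, MCM10, CDC45, POLA2, POLE2 and DSCC1. DESeq2 called 2, ORC6 and DSCC1. The median was -0.05 (all genes 0.073). In 14 members both N libraries lay below all bIP libraries, and in 4 above, as 13.8% and 17.2% of all tested genes did. ORC6 had a log2 change of -1.19 (SE 0.324, adjusted p = 0.29), and DSCC1 one of -2.45 (SE 0.632, adjusted p = 0.233).

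Against the radial glia, neurons were lower in many members. In N against bRG, 26 members fell and 1 rose, where 9.13% of tested genes fell and 10.6% rose, with a median of -1.16. In N against aRG, 41 fell and none rose, where 9.37% fell and 10.4% rose, with a median of -2.09. Without the unnumbered neuron library 19 and 32 members fell, and without N library 1, 22 and 30. Without bRG library 3 they were 29 and 44. The calls of RPA2, PRIM1, POLE, POLD1, POLD3, MCM2 and CHAF1B against aRG were lost when either neuron library was left out. CDC45 in N against aRG had a log2 change of -5.88 (SE 0.422, edgeR adjusted p = 1.26e-07), with a mean of 2.11 ± 0.48 CPM (SD, n = 2) against 124 ± 28.4 (n = 4). With all libraries, 9 members were called in no pairwise comparison: ORC2, ORC3, ORC4, ORC5, CDC7, RFC1, RPA1, RPA3 and TIPIN. The other 45 were called in at least 1, as 29.0% of all tested genes were. ORC2 to ORC5 and TIPIN were called under no alternative either.

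**Figure D4:**
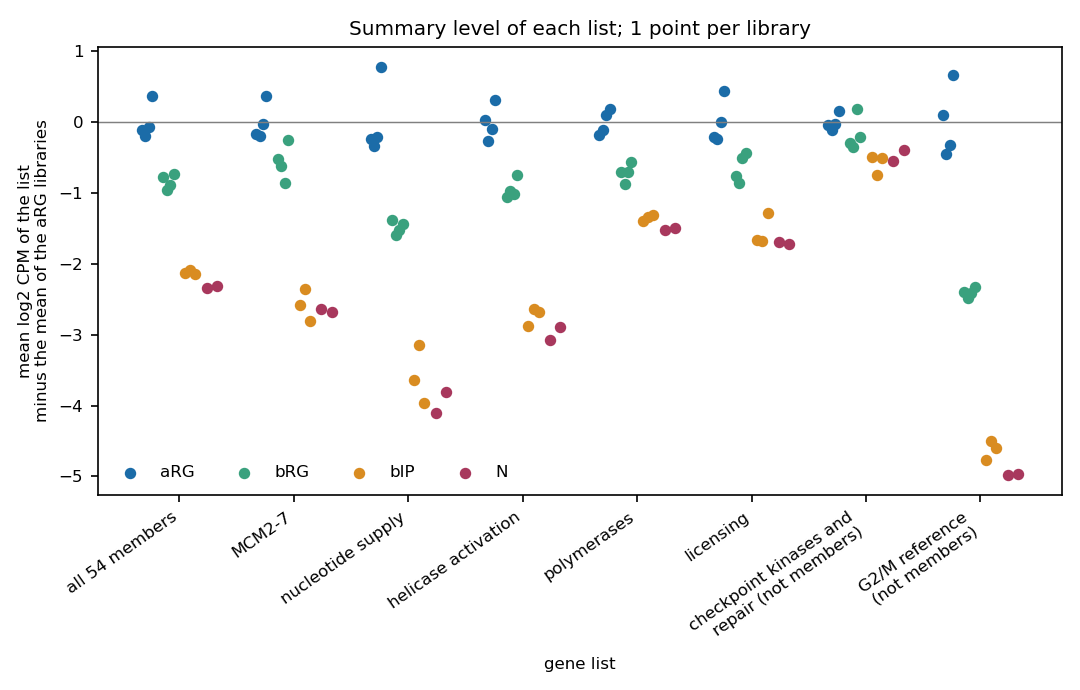
Each point is 1 library and the vertical axis is the mean log2 CPM of a gene list minus the mean of the aRG libraries, for all members, 5 role lists and 2 lists of other genes. In bRG the G2/M genes stand lower than any list of members, while the checkpoint and repair list stays above -1 in every library.

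Other genes of replication and S phase, 70 in all, were followed in the same way, and 68 were tested. In bRG against aRG 10 of them fell and none rose, where 1.23% of all tested genes fell. Their median was -0.34 (all genes 0.038). They were TICRR (-1.41) and DBF4B (-1.91), which act with the firing kinases, CHTF18 (-1.83) of the same loader as DSCC1, the nuclease DNA2 (-1.48), topoisomerase TOP2A (-2.49), the histone chaperone ASF1B (-2.55), the cohesion enzyme ESCO2 (-2.02), thymidylate kinase DTYMK (-0.96), the E2F repressor E2F8 (-2.34) and the mitotic inhibitor FBXO5 (-2.14). TOP2A is also a gene of mitosis. The DNA2 call was lost without aRG library 4 or bRG library 1, 2 or 4, and that of DTYMK without any of these or aRG library 1. In bIP against bRG 28 fell and 1 rose, where 8.44% of all tested genes fell and 8.25% rose. The median was -0.76 (all genes -0.091). By list, 7 of 14 tested initiation genes fell there, 4 of 9 lagging-strand and clamp genes, 6 of 9 chromatin genes, 2 of 8 nucleotide genes and 8 of 17 E2F and G1/S genes. Of the checkpoint and repair genes 1 of 11 fell, near the share of all tested genes.

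Of these genes, 2 were called higher somewhere, where 8.25% of all tested genes rose in bIP against bRG and 10.6% in N against bRG. RECQL4, a helicase of initiation and repair, rose by 1.02 in bIP against bRG (SE 0.282, edgeR adjusted p = 0.0174) and by 0.94 in N against bRG (adjusted p = 0.041), but it is listed at 0 in all 13 libraries on gorGor6. The first of these calls was lost without bRG library 4 or bIP library 1 or 2, the second without any 1 of 9 libraries, either neuron library included. DCK, the deoxycytidine kinase of salvage, rose by 1.18 in N against bRG (SE 0.385, adjusted p = 0.0386), a call lost without bRG library 1, 2 or 4, bIP library 1 or either neuron library. In the E2F family, E2F3 (-1.38) and E2F7 (-2.67) fell in bIP against bRG, as did CDK2 (-2.17), DTL (-3.06) and the pocket protein RBL1 (-1.57). POLA1, the catalytic subunit of the polymerase alpha complex, was read from the gorGor6 table. It measured 56.1 ± 9.43 CPM in aRG (SD, n = 4), 57.4 ± 44.8 in bRG, of which library 3 had 124, 17.6 ± 5.56 in bIP (n = 3) and 16.7 ± 5.22 in N (n = 2). POLA1 fell by 1.67 in bIP against aRG and by 1.70 against bRG (edgeR adjusted p of 0.0164 and 0.0157). Without bRG library 3 the second value was -1.03 (adjusted p = 0.0283), and without bIP library 1 or 2 neither passed (0.0619 to 0.0909).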

How the data were processed

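Bulk RNA-seq libraries of 4 sorted populations were analysed from the raw counts of reads per gene that the authors deposited for hg38 (the main values) and for gorGor6, a build that only a file name gives. Per the submitters' processing notes STAR and hg38 were used. How reads were counted, on which annotation and whether by strand is not given in the sources used here. Libraries were tested with edgeR 4.0.16 in R 4.3.3 (quasi-likelihood F-test, TMM scaling, filterByExpr with a minimum count of 10). The 13 libraries were fitted together, with 1 mean for each population, and p-values were Benjamini-Hochberg adjusted over 16804 genes and called under 0.05. Each standard error (SE) is the size of the log2 fold change divided by the square root of the F statistic of its test. Levels are CPM after TMM scaling. Summary levels use log2 CPM with a prior count of 2.

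The members and lists were chosen with earlier results of these data known. Values in every library are printed for members called in bRG against aRG or in the step difference, those called against the common direction, and those with the smallest and largest p of each role list. Other members are named in counts or in single values added after their results were seen. The number of 1 neuron library differs between its count column and the labels, so it is called the unnumbered neuron library. Alternatives were DESeq2 1.42.0, its size factors, no filter, gorGor6, a replicate block, the 2 populations alone, and each library left out. The tests were first run on simulated data. The counts of pairs of libraries within a population differed beyond sampling noise (chi-square per degree of freedom of 11.1 to 98), so no library repeats the counts of another. This cannot tell whether libraries came from the same RNA or the same sort. A gorGor6 row without a name, with 0.00351% to 0.00768% of counts, was left out. Neighbouring genes came from the RefSeq gorilla annotation (assembly NHGRI_mGorGor1-v2.1_pri), where all 54 symbols matched. There 9 members overlap a gene that is also counted on hg38, so their counts are uncertain: ORC1, ORC3, ORC4, ORC6, MCM7, PRIM2, FEN1, RPA1 and TIPIN. MCM6, PRIM1, POLE2, RFC3, DUT and E2F2 overlap only genes whose symbols are not among those counted on hg38. No sequence or position is reported.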

Additional observations from a re-analysis of the deposited data

Results flagged for a closer look

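In 3 of the 56 groups of 4 libraries tested (28 members in aRG and in bRG), 1 library stood apart by Dixon's criterion of 0.829, which chance meets in about 1 group in 20. CDC6 measured 79.2 CPM in aRG library 4, with the other 3 between 42.2 and 48.1. GINS4 measured 80.7 CPM in the same library, with the others between 67.2 and 69.4. POLD2 measured 120 CPM in bRG library 4, with the others between 45.2 and 50.2. The 28 were the members whose values are printed in every library, chosen partly by their test results, and the rest were not screened. Among the rest, ORC1 measured 63.7 CPM in aRG library 4 (others 24.2 to 27.7) and 2.12 in bRG library 3 (others 26.4 to 28.8). PCNA measured 205 CPM in aRG library 4 (others 88.2 to 99.5).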

How the results depend on the processing

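Of the recomputed counts, 147 stayed within 1.5 times the reported one, 2 were larger and 1 was smaller. The 147 include fits of N against bIP in which no member was called either way. They also include fits that left out a library of neither compared population. With the replicate block, 17 members fell in bRG against aRG in place of 10, and all 10 were among them. The block, which leaves out the unnumbered neuron library, gave 32 lower in N against aRG (from 41), 20 in N against bRG (from 26) and 27 in bIP against bRG (from 28), and called POLD2 higher in bIP against bRG and in the step difference. In bRG against aRG, leaving out single libraries gave 5 (without aRG library 4) to 11 members. DESeq2 called 15 in bRG against aRG, and in N against bIP it called 2 members in place of 0. In bIP against bRG 23 members were called on gorGor6 in place of 28, with ORC6, PRIM1, CHAF1B, RFC2 and RFC5 lost. The fit of bIP and bRG alone also called 23, with GINS4 lost in place of ORC6. Of the 19 single-gene results followed, none changed sign. CDC45, FEN1, MCM10, ORC6 and RRM2 were called in bRG against aRG under all 19 alternatives, and POLE2, MCM3, CLSPN, GINS2 and CDC45 in the step difference under all 18. MCM5 in the step difference was not called on gorGor6 (adjusted p = 0.0577), nor was GINS1 (0.194), and POLD2 in N against bRG was not called in the fit of those populations alone (0.1). The causes were not tested. In libraries with numbers 1 and 2 alone the median member log2 difference of bRG against aRG was -0.66, and with 3 and 4 it was -0.90. Libraries with the same number correlated at -0.01 to 0.39 (median 0.11) in their deviations from the population means, those with different numbers at -0.28 to 0.21 (median -0.09), and 4 of 8 in bRG against aRG correlated best with their own number. The labels name no block, so the main fit does not take the numbers as pairs. Whether the numbers mark shared batches was not tested. With 2 neuron libraries and a common spread, values of N rest on few reads for TK1, TYMS and DSCC1.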
